A study of Mus musculus with 6 samples.

Results

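Transcripts of 10 autophagy genes were followed in mouse brown adipose tissue, the fat depot that makes heat, with and without the transcription factor Yin Yang 1 in its brown adipocytes. The genes were Nipsnap1, Ulk1, Becn1, Atg7, Atg5, Map1lc3a, Map1lc3b, Gabarapl1, Sqstm1 and Bnip3, taken by gene symbol from the array's annotation. They had 23 probe sets, of 22626 on the array, and made up 10 of the 12393 genes that could be tested. The set was put together with the result of this same comparison known, Nipsnap1 being the gene with the 7th most negative log2 difference. The differences of these 10 genes are therefore given as a description, without a test. Tests are given for 83 other genes of the pathway, whose lists were also chosen with earlier results of these data known.

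Tissue came from mice aged 3.5 months, bred on a mixed C57BL6 and 129 background, that had been fed high fat food for 3 months. Control mice were YY1flox/flox, carrying floxed Yy1 alleles without Cre. YY1bKO mice were YY1flox/flox; Ucp1Cre, in which Cre is made from the Ucp1 promoter and so acts in brown adipocytes, while the other cells of the tissue keep Yy1. Each group held 3 arrays, and since only YY1bKO mice carried Cre, an effect of Cre and of losing Yy1 cannot be told apart. Nothing in the labels says that the 3 arrays of a group are separate animals, so the errors and p-values cover only how much these samples vary, and that may be technical variation.

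Autophagy encloses cell contents in a double membrane and delivers them to lysosomes. ULK1, a kinase, starts the process, and Beclin 1, in a lipid kinase complex, marks the membrane. ATG7 and ATG5 belong to the enzymes that attach LC3 and GABARAP proteins to that membrane, and cargo receptors such as p62 (the product of Sqstm1) bind both cargo and LC3. Mitophagy is the form that removes mitochondria. BNIP3 sits in the outer mitochondrial membrane and binds LC3, and NIPSNAP1, a mitochondrial protein, gathers on the surface of damaged mitochondria and recruits autophagy receptors. In brown fat, mitophagy is known to take part in the loss of mitochondria when a thermogenic stimulus ends.

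Since the factor removed binds DNA, promoter sequence of 3 of the genes is shown first: Nipsnap1, which had the largest difference of the 10, Map1lc3b, which was also lower, and Atg7, the one gene of the set whose promoter held a YY1 core motif. The sequences are from RefSeq on GRCm38.p6 and run 5′ to 3′ on the strand of the gene over the 250 bases before its start site. Capitals mark the YY1 core motif GCCATNTT or the E-box core CACGTG, which TFEB, a regulator of autophagy and lysosome genes, binds.
Nipsnap1, chr11:4873701-4873950, plus strand: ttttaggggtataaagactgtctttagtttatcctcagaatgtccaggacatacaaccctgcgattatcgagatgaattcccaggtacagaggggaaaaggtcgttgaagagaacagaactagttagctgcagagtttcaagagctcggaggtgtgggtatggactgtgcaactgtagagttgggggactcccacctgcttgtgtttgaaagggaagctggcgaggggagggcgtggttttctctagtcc
Map1lc3b, chr8:121590188-121590437, plus strand: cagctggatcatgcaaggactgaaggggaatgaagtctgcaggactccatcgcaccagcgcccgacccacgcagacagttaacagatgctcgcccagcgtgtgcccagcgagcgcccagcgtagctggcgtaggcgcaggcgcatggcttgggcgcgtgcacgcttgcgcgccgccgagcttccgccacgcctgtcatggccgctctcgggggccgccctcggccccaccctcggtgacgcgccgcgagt
Atg7, chr6:114670846-114671095, plus strand: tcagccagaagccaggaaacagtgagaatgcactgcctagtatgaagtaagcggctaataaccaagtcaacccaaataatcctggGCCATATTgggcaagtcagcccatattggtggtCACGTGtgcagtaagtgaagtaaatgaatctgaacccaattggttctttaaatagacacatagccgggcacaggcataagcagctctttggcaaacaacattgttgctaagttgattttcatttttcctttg

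Both strands of windows reaching 250 bases before and 50 bases after the start site were searched, and 8 of the 10 genes had such a window. Atg7 held the YY1 core at position -165 relative to the start site, and the other 7 windows held none, against 6.05% of 32851 promoters of 27025 genes. The E-box core, which reads the same on both strands, was found at -132 in Atg7, at -14 in Atg5 and at -108 in Bnip3, against 7.15% of all promoters. The 2 motifs do not overlap in Atg7. A match describes these letters and is neither a bound site nor a cause, and a window without a match says nothing about the factor.

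The tissue gave the markers its label calls for. Ucp1 had a log2 intensity of 13.7 to 14.0 on all 6 arrays and Cidea, which acts at lipid droplets, of 13.6 to 13.9. Yy1 itself was lower in its brightest probe set, with log2 intensities of 9.90, 9.62 and 9.95 in control and 8.38, 8.41 and 8.38 in YY1bKO arrays, or 2.69-fold lower. A further bright probe set was 3.28-fold lower, and 2 dim ones differed by -0.81 and -0.06. The sources used here do not say whether these probes read the floxed part of Yy1. Control replicate 2 stood apart, with a mean log2 intensity over 15 skeletal muscle markers of 13.14 against 11.07 and 10.86 in the other control arrays, and 11.99 to 12.49 in the YY1bKO arrays. The summed linear intensity of these muscle markers ran from 35210 to 190646 in control and from 75345 to 103005 in YY1bKO arrays. None of the 15 was dim. Myh7 and Tnnt1, genes of slow muscle fibres, were called higher (limma adjusted p = 0.00551 and 0.00437). For both, control replicate 2 was the lowest of the 6 arrays, at 9.06 and 8.73, and for each other muscle marker it was the highest. The mean of the 15, also used below as a covariate, thus does not follow these slow fibre genes. All 5 endothelial markers were lower in the YY1bKO arrays without overlap, 3 of them called. Over all genes, 15.7% were lower without overlap and 8.09% were called lower. The summed intensities of the endothelial markers were 2369 to 2611 in control and 1628 to 1848 in YY1bKO. Of the other lists, limma called 0 of 7 macrophage, 0 of 5 fibroblast and 0 of 4 lymphocyte markers, the last all dim. It called 1 of 9 brown adipocyte markers (Elovl3, higher) and 1 of 5 white adipocyte markers (Lep, lower), where it called 18.3% of all genes. Without a call, groups also did not overlap for Retn (white adipocyte, log2 difference 1.33), Cox8b (brown adipocyte, -0.21) and Cd3e (lymphocyte, 0.27). Their limma adjusted p was 0.109, 0.0957 and 0.0530, and 38.5% of all genes did not overlap. In bulk tissue, fewer cells of a type and less RNA per cell cannot be told apart.

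Nipsnap1 transcript was far lower in YY1bKO tissue. Its brightest probe set, 1448465_at, had log2 intensities of 8.47, 7.77 and 8.41 in control replicates 1, 2 and 3, and of 5.50, 5.90 and 5.91 in YY1bKO replicates 1, 2 and 3. The lowest control array, replicate 2, still lay above the highest YY1bKO array. The group means were 8.22 ± 0.39 and 5.77 ± 0.23 (SD, n = 3), a log2 difference of -2.44 ± 0.21 (SE), or 5.44-fold lower. Its other probe set, 1456748_a_at, gave 8.10, 7.59 and 8.32 in control and 5.04, 5.47 and 5.75 in YY1bKO arrays, 5.99-fold lower. In both probe sets the groups were well apart and the YY1bKO values lay below 6.48, the median log2 intensity over all probe sets, a range where this kind of array processing is known to understate differences.

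The Nipsnap1 difference was -2.67 without control replicate 2 and between -2.51 and -2.31 when any other array was left out. With the mean of the muscle markers as a covariate it was -2.28. It was -2.15 when 16 was added to the linear values before taking logs. The part of the endothelial markers in it was not tested.

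**Figure D1:**
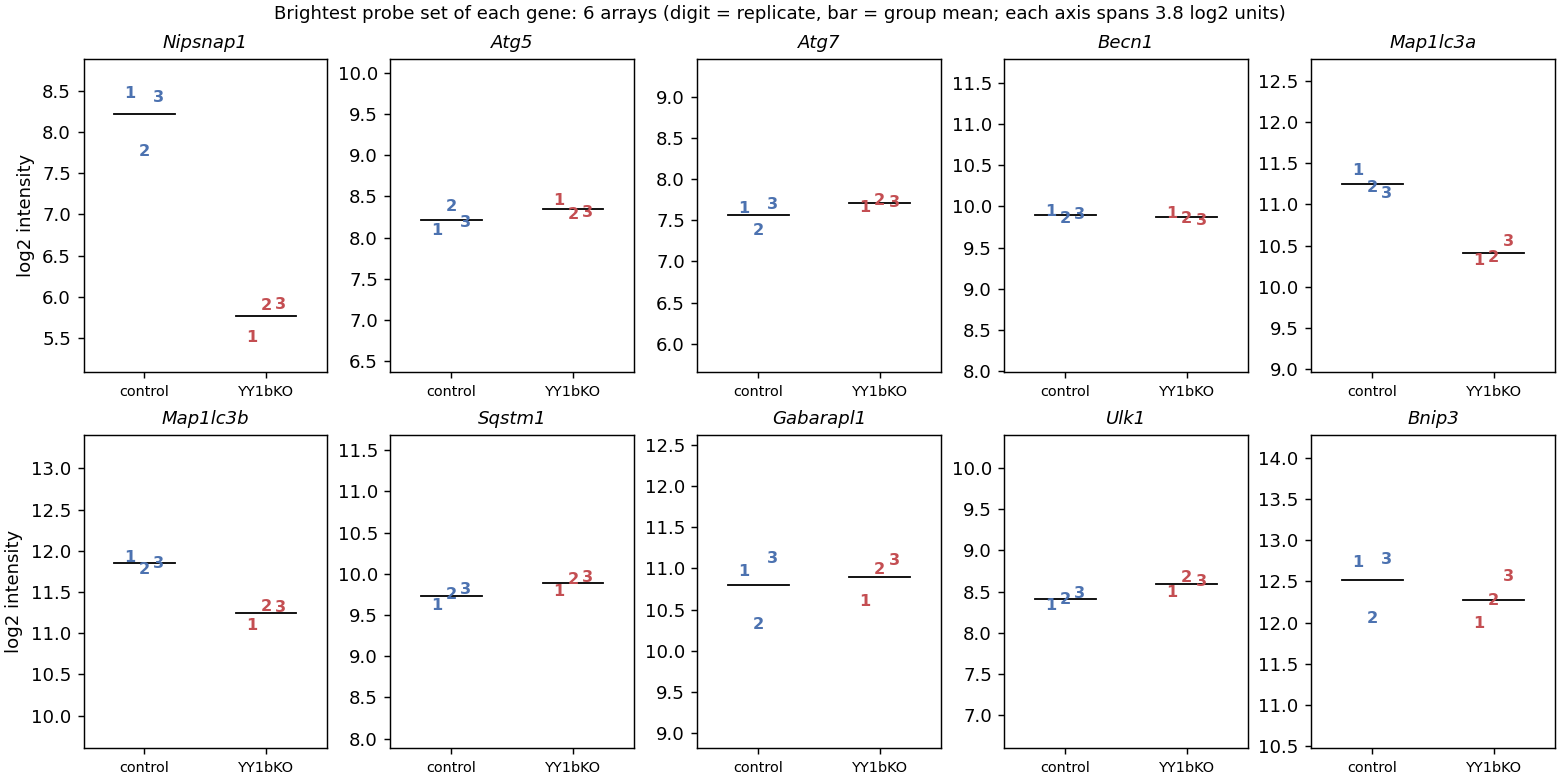
Log2 intensity (vertical axis) of the brightest probe set of each of the 10 genes in the 3 control and 3 YY1bKO arrays, shown by replicate number, with a bar at each group mean and axes of equal span. Nipsnap1 had means of 8.22 in control and 5.77 in YY1bKO arrays, and the means of Map1lc3a and Map1lc3b parted by 0.84 and 0.61. The group means of the other genes differed by 0.24 (Bnip3) or less.

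Among all genes whose mean lay above that median, 5 followed Nipsnap1 most closely, measured as the root mean square difference of mean-centred log2 values over the 6 arrays. Zdhhc2, a palmitoyltransferase, was nearest of 6925 genes at 0.087, with control values of 8.74, 8.14 and 8.90 and YY1bKO values of 5.84, 6.11 and 6.31. It shared with Nipsnap1 the low value of control replicate 2 and the lowest value in YY1bKO replicate 1. S100b, a calcium-binding protein, followed at 0.19, Ptgds, a prostaglandin D synthase, at 0.19, Suclg2, a subunit of succinyl-CoA synthetase, at 0.22, and Fgf1, a growth factor, at 0.24. Their log2 differences ran from -2.51 for Zdhhc2 to -2.11 for Fgf1. Nearness was computed on the arrays that set the Nipsnap1 difference, so it holds no test.

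**Figure D2:**
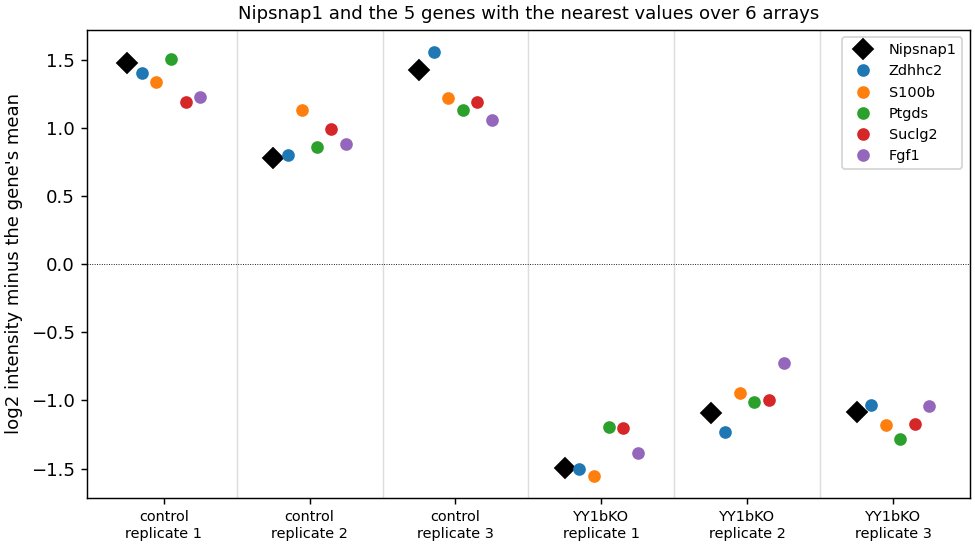
Log2 intensity minus each gene's own mean (vertical axis) on each of the 6 arrays (horizontal axis) for Nipsnap1 (diamonds) and the 5 genes nearest to it (circles). All lie above their mean in control and below it in YY1bKO arrays, and Zdhhc2 follows Nipsnap1 with a root mean square difference of 0.087.

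The relatives of Nipsnap1 differed far less. Nipsnap2, which acts beside NIPSNAP1 in mitophagy, had log2 intensities of 10.47, 11.19 and 10.60 in control and 10.41, 10.32 and 10.41 in YY1bKO arrays. The groups did not overlap, the highest value being that of control replicate 2, and the log2 difference of -0.37 ± 0.19 (SE) did not pass the test (limma adjusted p = 0.220). It was -0.16 without control replicate 2, and -0.53 with the muscle markers as a covariate, where it did pass (limma adjusted p = 0.00983). Nipsnap3b gave -0.10 ± 0.15 (SE, limma adjusted p = 0.695), and Nipsnap3a was not analysed here. In the fit without a covariate, neither of the 2 measured relatives was called by limma, and 0 had an unadjusted p under 0.05.

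Of the 10 genes, 3 were lower in YY1bKO without overlap of the groups, namely Nipsnap1, Map1lc3a and Map1lc3b, 1 was higher without overlap, Ulk1, and 6 overlapped. Over all genes, 38.5% did not overlap, 22.8% higher and 15.7% lower, and since the comparison served to choose the set, nothing is read from its count. Counted by probe set, 6 of 23 were lower and 4 higher without overlap, where 36.2% of all probe sets did not overlap. The median log2 difference of the 10 genes was 0.03, beside 0.04 over all genes. All 10 brightest probe sets had a mean above the median of all probe sets, and 3 of the 23 probe sets, 1 each of Becn1, Map1lc3b and Ulk1, did not.

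Ulk1 and Becn1, which act at the start of autophagosome formation, lay close between the groups. Ulk1 had log2 intensities of 8.34, 8.41 and 8.48 in control and 8.49, 8.67 and 8.62 in YY1bKO arrays. The groups touched without overlapping, control replicate 3 and YY1bKO replicate 1 being next to each other. The log2 difference was 0.19 ± 0.09 (SE) in that probe set and 0.08 in a dim one, where the groups overlapped. The Becn1 probe set of highest intensity gave 9.94, 9.85 and 9.90 in control and 9.91, 9.86 and 9.83 in YY1bKO arrays, a difference of -0.03 ± 0.07 (SE). The 3 other Becn1 probe sets gave 0.03 to 0.12, so its sign was not shared, and the suffixes of 3 of its 4 probe sets (_s_at and _x_at) mark probes that may also bind other transcripts.

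Atg7 and Atg5, which act in the conjugation of ATG8 proteins, gave probe sets that differed in size. Atg7, whose product activates both ATG12 and the ATG8 proteins, had brightest values of 7.64, 7.37 and 7.69 in control and 7.66, 7.74 and 7.72 in YY1bKO arrays. Control replicate 2 was the low array, and without it the difference of 0.14 ± 0.10 (SE) was 0.04. Another Atg7 probe set, 1428612_at, overlapped, at 7.31, 6.98 and 7.51 against 7.31, 7.40 and 7.33, a difference of 0.08 ± 0.14 (SE). The dimmest, 1428611_at, was higher without overlap, at 6.52, 6.26 and 6.68 against 6.91, 6.94 and 6.78, or 1.31-fold. The mean over the Atg7 probe sets was 0.20.

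Atg5 encodes the protein that ATG12 is joined to. Its brightest probe set, 1415684_at, gave 8.09, 8.38 and 8.18 in control and 8.45, 8.28 and 8.31 in YY1bKO arrays, which overlapped, for a difference of 0.13 ± 0.10 (SE). The 2 dimmer Atg5 probe sets did not overlap. The first, 1418236_s_at, was higher in YY1bKO arrays by 0.33 ± 0.10 (SE), and 1418235_at, at 6.40, 6.04 and 6.41 against 6.72, 6.84 and 6.68, was higher by 0.46 ± 0.12 (SE). The mean over its 3 probe sets was 0.31, and the sources used here do not say which parts of the transcript the probes read. As for Becn1, the suffix of 1418236_s_at marks probes that may also bind other transcripts.

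**Figure D3:**
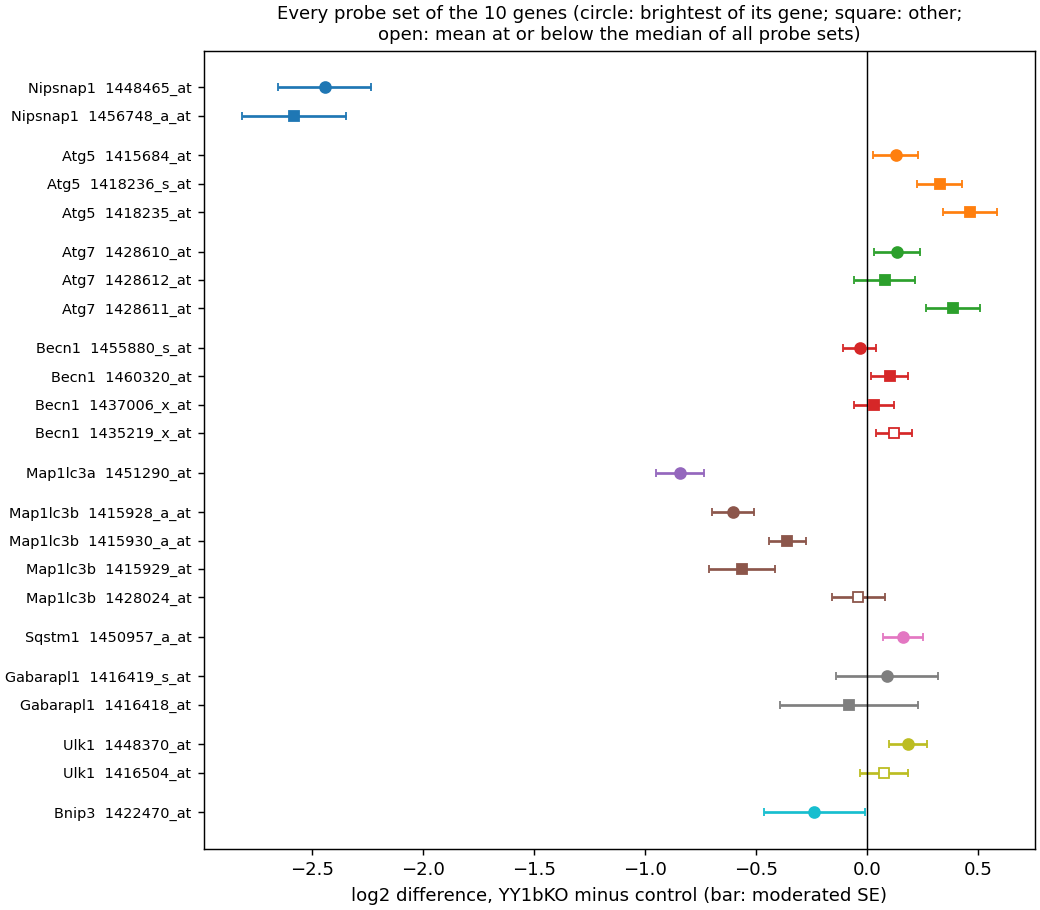
Log2 difference, YY1bKO minus control (horizontal axis, bars: moderated SE), for each of the 23 probe sets, grouped by gene. Both Nipsnap1 probe sets lie at -2.44 and -2.58, the 3 brighter Map1lc3b probe sets lie between -0.61 and -0.36, and the Becn1 probe sets lie on both sides of 0.

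The LC3 genes were lower in all YY1bKO arrays. Map1lc3a, which encodes LC3A, had log2 intensities of 11.41, 11.21 and 11.13 in control and 10.31, 10.35 and 10.55 in YY1bKO arrays. The groups were well apart, with a log2 difference of -0.84 ± 0.11 (SE), or 1.80-fold lower, from a single probe set. Map1lc3b, which encodes LC3B, the form most used as an autophagosome marker, gave 11.92, 11.78 and 11.85 in control and 11.09, 11.32 and 11.32 in YY1bKO arrays. Its difference was -0.61 ± 0.10 (SE), or 1.52-fold lower, and -0.39 as the mean over its 4 probe sets, 1 of them dim. Map1lc3b was lower without overlap in 3 of its 4 probe sets, with 1.28-fold for 1415930_a_at and 1.48-fold for 1415929_at, and its dim probe set, at 4.68 in control and 4.64 in YY1bKO, overlapped. With any array left out the Map1lc3a difference ran from -0.92 to -0.76 and that of Map1lc3b from -0.64 to -0.53. The covariate for muscle markers left -0.82 and -0.58.

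The GABARAP branch of the same family had 3 measured genes, and its difference from the LC3 genes was not tested. Gabarapl1 had log2 intensities of 10.97, 10.32 and 11.13 in control and 10.60, 10.99 and 11.09 in YY1bKO arrays. The groups overlapped, with control replicate 2 lowest of all, and the difference was 0.09 ± 0.23 (SE). It was -0.15 without control replicate 2, 0.28 with muscle markers as a covariate and -0.08 in its dimmer probe set, so its direction is not settled. The suffix of the brightest Gabarapl1 probe set, 1416419_s_at, marks probes that may also bind other transcripts. Gabarap, the founding member of the branch and a gene outside the 10, was higher, at 11.07, 10.91 and 11.13 in control and 11.57, 11.61 and 11.47 in YY1bKO arrays (log2 difference 0.51 ± 0.09, SE, limma adjusted p = 0.0123). The Gabarap call was lost without YY1bKO replicate 1 (limma adjusted p = 0.0536) or replicate 2 (0.0563). Gabarapl2, singled out after its values were seen, also lay higher without overlap, at 10.33, 10.32 and 10.41 against 10.61, 10.57 and 10.66, and did not pass (0.26 ± 0.07, SE, limma adjusted p = 0.0548). Gabarapl2 did pass under 6 alternatives, namely quantile normalization, dim probe sets left out, the mean over probe sets, trend and robust options, an offset of 16 and the muscle covariate (limma adjusted p = 0.0227 to 0.0470), and in none of those that left out an array (0.0739 to 0.169).

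**Figure D4:**
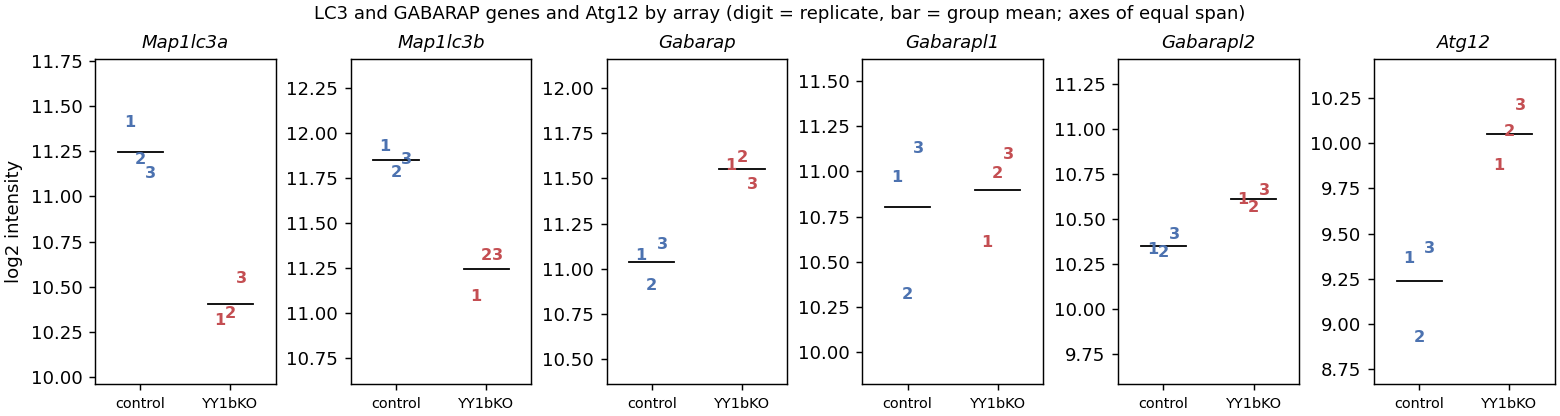
Log2 intensity (vertical axis) of the 5 measured LC3 and GABARAP genes and of Atg12 in the 3 control and 3 YY1bKO arrays, shown by replicate number, with a bar at each group mean and axes of equal span. Both LC3 genes lie lower in YY1bKO, Gabarap, Gabarapl2 and Atg12 lie higher, and Gabarapl1 overlaps.

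Of the receptors, Sqstm1, which encodes p62, had log2 intensities of 9.62, 9.75 and 9.81 in control and 9.79, 9.93 and 9.96 in YY1bKO arrays. Only YY1bKO replicate 1 lay within the control range, and the difference was 0.16 ± 0.09 (SE). Bnip3, the mitophagy receptor that low oxygen induces, gave 12.73, 12.05 and 12.77 in control and 11.99, 12.27 and 12.56 in YY1bKO arrays, a difference of -0.24 ± 0.23 (SE) with the groups overlapping. Control replicate 2, high in muscle markers, was the low control array. Without it the Bnip3 difference was -0.47, and with the muscle markers as a covariate it was -0.05. Bnip3l, a close relative, was not analysed here, because its probe sets are annotated to more than a single gene.

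The rest of the pathway was read from 104 genes in 9 lists arranged by step, of which 83 were measured. YY1bKO tissue had 5 of these called higher and 3 lower at an adjusted p under 0.05, or 9.64%, against 18.3% of all genes, 10.2% higher and 8.09% lower. The higher genes were Atg12, Vamp8, Marchf5, Gabarap and Vps11, and the lower ones Tecpr1, Deptor and Pink1. The list median of the log2 difference was 0.04, as over all genes. The counts depended on the arrays: without control replicate 2 they were 7 higher and 12 lower, without YY1bKO replicate 1 they were 3 and 1, without replicate 2 of that group 1 and 1, and without replicate 3 of it 2 and 1. With muscle markers as a covariate 11 were higher and 11 lower, among them all 8 above. In the fit without a covariate, 11 of the 83 were higher and 14 lower at an unadjusted limma p under 0.05. Over all 12393 genes, 2220 were higher and 1740 lower at that level, beside which the unadjusted counts of the lists below are to be read.

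**Figure D5:**
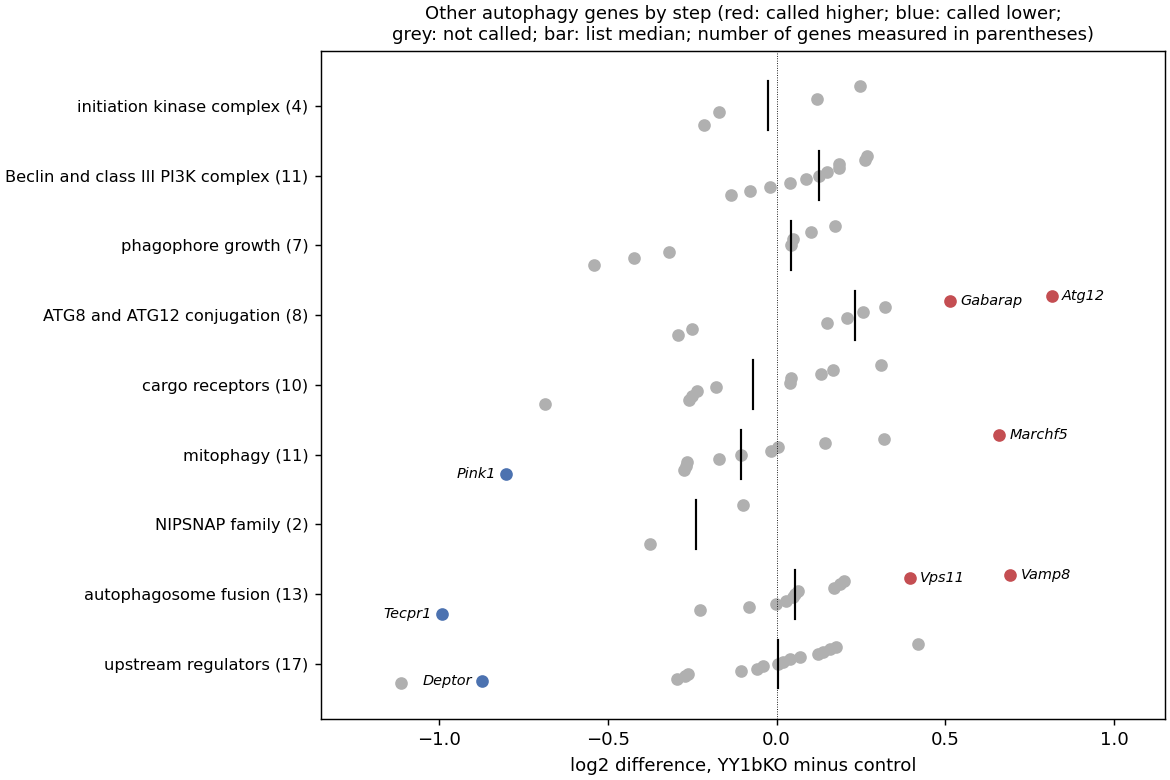
Log2 difference, YY1bKO minus control (horizontal axis), of the 83 other autophagy genes in 9 lists by step, with called genes coloured and named and a bar at each list median. Called genes stand at both ends, from Tecpr1 at -0.99 to Atg12 at 0.81, and 75 genes were not called.

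In the conjugation list, 2 of 8 measured genes were higher and 0 lower by limma (before adjustment, 4 higher and 2 lower had p under 0.05), with a median of 0.23. Atg12, the ubiquitin-like partner of ATG5, had log2 intensities of 9.36, 8.92 and 9.42 in control and 9.88, 10.06 and 10.21 in YY1bKO arrays, a difference of 0.81 ± 0.16 (SE, limma adjusted p = 0.0159). All 3 Atg12 probe sets had this sign, their mean being 0.49. The Atg12 call was lost without YY1bKO replicate 2 or 3 (limma adjusted p = 0.0640 and 0.0645). Gabarap, given above, was the other called gene of the list.

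The mitophagy list held 1 higher and 1 lower gene of 11, with a median of -0.11. Pink1, the kinase that accumulates on damaged mitochondria, was lower, at 10.91, 11.51 and 11.00 in control and 10.37, 10.38 and 10.27 in YY1bKO arrays (-0.80 ± 0.16, SE, limma adjusted p = 0.0191). Its highest value was that of control replicate 2, and without that array the difference was -0.61 and still called (limma adjusted p = 0.00409). Its call was lost without YY1bKO replicate 1, 2 or 3 (limma adjusted p = 0.0662, 0.0665 and 0.0753). Marchf5, a ubiquitin ligase of the outer mitochondrial membrane, was higher by 0.66 ± 0.12 in its brightest probe set (SE, limma adjusted p = 0.0139). Marchf5 lost its call without YY1bKO replicate 2 or 3 (limma adjusted p = 0.0584 and 0.0595). The sign was shared by 3 of 3 probe sets, the others giving 0.74 without overlap and, in a dim one, 0.15 with overlap. Usp30 was not analysed here.

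Among 13 measured genes for the fusion of autophagosomes with lysosomes, 2 were higher and 1 lower, with a median of 0.06. Vamp8, a SNARE protein of the fusion step, had log2 intensities of 9.46, 9.42 and 9.47 in control and 10.23, 10.16 and 10.05 in YY1bKO arrays, a difference of 0.69 ± 0.08 (SE, limma adjusted p = 0.00322). Tecpr1, a tethering protein on lysosomes, gave 10.17, 9.81 and 10.37 in control and 8.98, 9.27 and 9.12 in YY1bKO arrays, or -0.99 ± 0.16 (SE, limma adjusted p = 0.00854), with the same sign in both probe sets. The Vamp8 and Tecpr1 calls held with any array left out (highest limma adjusted p = 0.0205 and 0.0404). Vps11, a tethering subunit, was higher by 0.40 ± 0.09 (SE, limma adjusted p = 0.0316), a call lost when any YY1bKO array or control replicate 1 was left out and in the mean over its probe sets.

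Of 17 upstream regulators, Deptor, an inhibitor of the kinase mTOR, was lower and 0 were higher by limma (before adjustment, 1 higher and 3 lower had p under 0.05). Deptor had log2 intensities of 11.99, 11.44 and 12.22 in control and 10.83, 11.12 and 11.07 in YY1bKO arrays, a difference of -0.87 ± 0.20 (SE, limma adjusted p = 0.0288) with the same sign in all 3 probe sets. The Deptor call was lost without any array except control replicate 2 (highest limma adjusted p = 0.102). Tfeb, singled out as the E-box factor named above, gave -0.06 ± 0.14 (SE, limma adjusted p = 0.811).

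The 4 remaining lists had no called gene in limma. Of 4 initiation kinase genes 0 had an unadjusted p under 0.05, and Atg13, a subunit of the ULK1 complex, had the smallest adjusted p (0.25 ± 0.11, SE, limma adjusted p = 0.178). Of 11 genes of the Beclin 1 and lipid kinase list, 1 had an unadjusted p under 0.05, Uvrag, a partner of Beclin 1 (0.26 ± 0.09, SE, limma adjusted p = 0.107). Of 7 genes for growth of the membrane, 2 were lower at that level, with Atg9b, a lipid scramblase, at -0.42 ± 0.12 (SE, limma adjusted p = 0.0586) and a dim intensity. Atg9b was called with quantile normalization (limma adjusted p = 0.0298), with trend and robust options (0.0494) and without control replicate 2 (0.0485). Of 10 cargo receptor genes, 1 was higher and 2 lower at that level, and Nbr1, which resembles p62, lay lower on all YY1bKO arrays, at 10.09, 10.07 and 10.10 against 10.31, 10.31 and 10.42 (-0.26 ± 0.07, SE, limma adjusted p = 0.0521). Nbr1 was called without control replicate 2 (limma adjusted p = 0.0462) and in 3 other settings, and the medians of these lists were -0.02, 0.13, 0.04 and -0.07.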

How the data were processed

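Total RNA of brown adipose tissue was extracted with Trizol and hybridised as biotin-labelled cRNA to Affymetrix arrays, per the labels' protocols. The authors' deposited values were made with RMA, per the submitters' processing notes, version not given in the sources used here. They are linear intensity values, as their range of 4.907 to 21218.8 shows, with array medians of 88.5 to 89.5, since RMA makes arrays alike. The number of arrays limits the precision.

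From the deposited intensity values log2 was taken without an offset. After removal of 64 control probe sets, 22626 remained, of which 20380 had 1 gene symbol, 691 several and 1555 none in the platform annotation, and probe sets with several or none were not named. Of these, 20351 matched RefSeq by Entrez identifier, and 0 symbols changed. Each of 12393 genes was read from its brightest probe set, and limma 3.58.1 in R 4.3.3 (lmFit, eBayes) compared the groups, with Benjamini-Hochberg adjustment over all genes and calls at an adjusted p under 0.05. SE of the 10 genes is from the same fit over all probe sets. The procedure was tested on simulated data with independent noise, which held no array standing apart as control replicate 2 does, so that feature was not covered. A probe set is dim where its mean is at or below the median of all.

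The 10 genes, the pathway lists and the marker lists were chosen with earlier results of these data known. Named were the 10 genes, Yy1, the NIPSNAP family, up to 4 called genes of a pathway list or else the one of smallest p, and the 5 genes nearest to Nipsnap1. Alternatives were quantile normalization, median centring, leaving out dim probe sets, the mean over probe sets, trend and robust options, an offset of 16, the replicate number as a block, the muscle marker mean as a covariate, and each array left out. No scan date or batch was given in the sources used here.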

Additional observations from a re-analysis of the deposited data

How the results depend on the processing

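With any array left out, the Nipsnap1 log2 difference ran from -2.67 to -2.31. Over the same settings, genes called higher ran from 547 to 1661 and lower from 466 to 1439, probe sets higher from 808 to 2607 and lower from 699 to 2473, and pathway genes higher from 1 to 7 and lower from 1 to 12. All of these fits have fewer samples, yet the upper end of each count came without control replicate 2. There the calls exceeded the 1267 genes higher and 1003 lower of all 6 arrays. The causes were not tested. Pathway genes called lower numbered 6 with dim probe sets left out, 5 with the trend and robust options and 6 with an offset of 16. With the muscle covariate there were 11 pathway genes higher and 11 lower, 1817 genes higher and 1784 lower, and 3043 probe sets higher and 2905 lower. The cause was not tested. Nipsnap3b reversed to 0.013 with the muscle covariate and, with an array left out, ran from -0.23 (control replicate 2) to 0.0072 (YY1bKO replicate 2), without a call in these. With the replicate number as a block, 671 genes were higher and 639 lower, 1108 probe sets higher, and 3 pathway genes higher, and Gabarap, Vps11 and Deptor lost their calls. The deviations of same-numbered arrays correlated at -0.246, 0.112 and 0.261. So few arrays cannot show whether those of a number share more than the number, and the pairing is not taken from the design. Low intensity limits what can be seen of dim probe sets.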

Other observations

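Some pathway genes, singled out after their values were seen, had probe sets that differed. Sh3glb1, a partner of Beclin 1 through UVRAG, gave a log2 difference of -0.14 in its brightest probe set, which overlapped, and -0.61 and -0.51 in the others, which did not. Their mean of -0.42 passed (limma adjusted p = 0.00905), and the brightest alone did not (0.332). Mul1, a mitochondrial ubiquitin ligase, gave -0.27 in its brighter and 0.33 in its dimmer probe set, both without overlap. Stx17, the SNARE of autophagosomes, gave 0.00, 0.43, 0.03 and -0.27 in its 4 probe sets.

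Retreg1, a receptor for autophagy of the endoplasmic reticulum, had log2 intensities of 8.74, 11.19 and 8.82 in control and 9.75, 9.72 and 9.42 in YY1bKO arrays. Control replicate 2, the array highest in muscle markers, was the highest here. The Retreg1 log2 difference was 0.04 (limma adjusted p = 0.972), with the muscle markers as a covariate it was -0.57 (0.0159), and without control replicate 2 it was 0.84 (0.00449), so that its direction is not settled. Ddit4, an inhibitor of mTOR signalling, gave 10.28, 8.99 and 9.39 in control and 8.09, 8.63 and 8.61 in YY1bKO arrays, without overlap, and did not pass (-1.11 ± 0.33, SE, limma adjusted p = 0.0632). Without control replicate 2 Ddit4 was called (-1.39, limma adjusted p = 0.0144).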
